A study of Mus musculus with 6 samples.

Results

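Voltage-gated sodium channel genes were measured in single sensory neurons of the mouse dorsal root ganglion. The 9 genes described are the listed Scn rows of the deposited count table, which holds 27998 genes: the pore-forming alpha subunits Scn1a, Scn3a, Scn8a, Scn9a, Scn10a and Scn11a and the accessory beta subunits Scn2b, Scn3b and Scn4b. They are members of 1 gene family. Droplet libraries of 21685 cells came from 6 mice in 3 groups of 2, each with 1 female and 1 male. Deficient mice (654, female, and 657, male) were Ttpa-/- on a vitamin E deficient diet, supplemented mice (670, male, and 671, female) were Ttpa-/- on a vitamin E supplemented diet, and both groups were 6 months old. Wild type mice (698, female, and 699, male) were Ttpa+/+ on a basal diet and 5 months old, so genotype, diet and age cannot be told apart between them and the Ttpa-/- mice. Ttpa encodes the alpha-tocopherol transfer protein, whose loss leaves the body short of vitamin E unless the diet adds it.

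Sodium channels open when the membrane depolarises and carry the inward current that drives the rising phase of the action potential. Each channel has 1 large alpha subunit that forms the pore, with beta subunits that alter gating and surface level. In sensory neurons Scn10a and Scn11a encode the tetrodotoxin-resistant channels Nav1.8 and Nav1.9, known from pain-sensing neurons, and Scn9a encodes Nav1.7, a threshold channel whose loss in people abolishes pain. Scn1a and Scn8a encode Nav1.1 and Nav1.6, fast channels known from myelinated fibres and, for Nav1.6, the node of Ranvier, while Scn3a encodes Nav1.3, known from the embryo and from injured nerves.

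Neurons were placed in classes by marker genes, none of them a sodium channel. Of 21658 cells kept, 19275 passed a neuron gate, 12442 of these (64.55%) entered a class, and 9 classes had enough cells in every mouse to be tested. NP1-like neurons (2059 cells, Mrgprd, Lpar3) and NP3-like neurons (1626, Nppb, Sst) are unmyelinated non-peptidergic types. Mrgpra3-gated neurons (656) had too few further markers for a type name. TH-like neurons (3278, Th, Fam19a4) are C-fibre touch receptors. PEP-like neurons (1632; Tac1, Adcyap1) are peptidergic, and PEP-A-like neurons (688; Smr2, Bmpr1b, Kit with Nefh) are peptidergic neurons with a neurofilament marker of myelinated cells. NF-Ad-like (649; Ntrk2, Colq), NF-Ab-like (1214; Calb1, Ntrk3) and NF-P-like (587; Pvalb) neurons are myelinated touch and muscle-sense types. Libraries held 12538785 to 19383933 UMIs (unique molecular identifiers, each standing for 1 captured RNA molecule), with median UMIs per cell of 2499.5 to 4959. In the libraries 261 cell barcodes occurred in more than 1 mouse (522 cells). Levels below are UMIs per 1000000 UMIs of a class (CPM), summed per mouse, and are compared between classes and mice but not between genes.

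Promoter sequences are shown for 4 alpha subunit genes that stand for the patterns described below: Scn11a, high in unmyelinated types, Scn1a and Scn8a, high in NF types, and Scn9a, present across types. Each is the 250 bases before a RefSeq transcription start (GRCm38.p6), 5′ to 3′ on the strand of the gene, at chr9:119825457-119825706 (minus), chr2:66440838-66441087 (minus), chr15:100870395-100870644 (plus, the upstream of 2 listed starts) and chr2:66634963-66635212 (minus). Capitals mark CACCC or its complement GGGTG, letters found in the sites of Krüppel-like factors.
Scn11a: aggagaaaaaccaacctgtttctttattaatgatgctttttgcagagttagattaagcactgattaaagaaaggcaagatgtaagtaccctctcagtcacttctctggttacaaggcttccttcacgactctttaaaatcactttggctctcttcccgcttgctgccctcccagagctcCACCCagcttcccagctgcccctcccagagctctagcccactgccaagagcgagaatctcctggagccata
Scn1a: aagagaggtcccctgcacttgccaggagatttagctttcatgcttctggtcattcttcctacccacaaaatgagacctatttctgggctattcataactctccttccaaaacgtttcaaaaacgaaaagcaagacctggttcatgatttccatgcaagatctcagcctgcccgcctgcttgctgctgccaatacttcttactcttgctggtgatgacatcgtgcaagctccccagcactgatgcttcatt
Scn8a: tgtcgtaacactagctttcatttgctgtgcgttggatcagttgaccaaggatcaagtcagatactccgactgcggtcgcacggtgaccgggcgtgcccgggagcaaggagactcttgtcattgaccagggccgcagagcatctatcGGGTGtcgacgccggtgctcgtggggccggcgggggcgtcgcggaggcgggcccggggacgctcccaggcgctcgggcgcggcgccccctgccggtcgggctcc
Scn9a: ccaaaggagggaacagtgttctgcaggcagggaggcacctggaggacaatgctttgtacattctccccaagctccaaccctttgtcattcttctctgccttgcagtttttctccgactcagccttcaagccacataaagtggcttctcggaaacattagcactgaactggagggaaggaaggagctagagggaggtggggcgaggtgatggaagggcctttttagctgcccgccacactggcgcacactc
CACCC, searched on both strands, occurred 1 time in the Scn11a window and 1 time in the Scn8a window, and not in those of Scn1a and Scn9a. Of 32851 RefSeq promoter windows of this length, 52.0% held it. TGTGGT, the core of Runx sites, and TAATTA, the core of many homeodomain sites, were in none of these 4 windows on either strand and were in 14.0% and 4.84% of all windows. The capitals thus describe letters in these windows and no binding was measured.

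The clearest pattern in the data was between neuron classes. Scn10a was highest in Mrgpra3-gated, NP1-like and PEP-A-like neurons, and Scn11a in NP1-like and Mrgpra3-gated neurons. Scn1a, Scn8a and Scn4b were highest in the NF classes. Scn3a and Scn9a were highest in TH-like neurons, and Scn9a was present in all 9 classes. Each class was compared with the unweighted mean of the other 8 classes on the log2 scale, with mouse as a block (edgeR quasi-likelihood test, Benjamini-Hochberg adjustment over 9632 genes, called at adjusted p under 0.05). Of 81 comparisons (9 genes in 9 classes), 74 were called, 43 higher and 31 lower. Over all genes 63.4% of such comparisons were called (33.9% higher and 29.5% lower), so a call between classes is common. All 9 channel genes were called in Mrgpra3-gated (60.8% of all genes), PEP-like (56.8%), PEP-A-like (49.5%), NF-Ad-like (57.6%) and NF-P-like neurons (65.4%). In NP1-like (75.7%), NP3-like (64.5%) and NF-Ab-like neurons (67.6%) 8 were called, and in TH-like neurons 5, where 72.4% of all genes were called. In PEP-A-like neurons 8 of the 9 were higher, where 28.3% of all genes were higher, and Scn11a was the 1 called lower. Of these 9 calls, those of Scn3a (0.04) and Scn11a (-0.15) were lost without the Mrgpra3-gated class, whose count of 0 for Scn3a enters the comparison. Both were also lost with the stricter gate. That gate too left no Mrgpra3-gated class to compare with and kept all 688 PEP-A-like neurons, so it is no separate check.

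**Figure D1:**
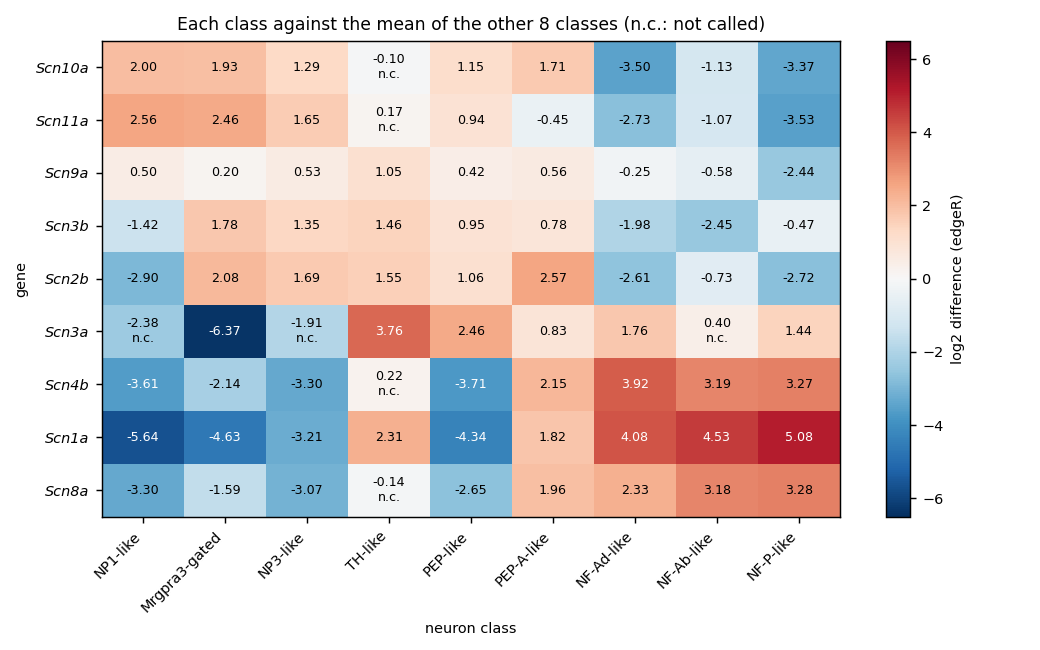
Heat map of the log2 difference of each gene (rows) in each neuron class (columns) from the mean of the other 8 classes. Red is higher and blue lower, and n.c. marks the 7 comparisons not called by edgeR. The Scn3a value in Mrgpra3-gated neurons rests on a count of 0 and is no measured fold. That 0 also enters the mean behind every other Scn3a value, and each of these was lower without that class. Scn10a and Scn11a run from 2.00 and 2.56 in NP1-like neurons to -3.37 and -3.53 in NF-P-like neurons, and Scn1a runs from -5.64 to 5.08 over the same classes.

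Scn10a, the gene of Nav1.8, was high in NP1-like neurons, with a lowest, median and highest level over the 6 mice of 181.6, 208 and 227 CPM. It was as high in Mrgpra3-gated neurons (183, 205 and 232 CPM) and in PEP-A-like neurons (180.1, 187 and 231 CPM). These ranges overlap, and adjacent pairs of the 3 classes did not differ beyond the spread between mice (exact sign-flip permutation over 6 mice, two-sided, p = 0.688 and 0.50). NP3-like neurons (135, 144 and 154 CPM) and PEP-like neurons (119, 137 and 167 CPM) were lower than PEP-A-like neurons, and TH-like neurons lower again (55.4, 59.3 and 63.0 CPM). In the NF classes Scn10a was 28.9 to 47.0 CPM in NF-Ab-like, 4.15 to 22.0 in NF-P-like and 3.55 to 15.0 in NF-Ad-like neurons. Every mouse thus had more Scn10a in each of the 5 highest classes than in TH-like neurons, and more in TH-like than in any NF class. The log2 difference from the other classes was 2.00 ± 0.06 (SE) in NP1-like neurons (edgeR adjusted p = 5.7e-52) and -3.50 ± 0.19 in NF-Ad-like neurons (edgeR adjusted p = 4.3e-32), while TH-like neurons sat at the mean of the others (-0.10 ± 0.08, edgeR adjusted p = 0.30). The TH-like value depends on the gate, and with each neuron given to its highest-scoring class it was lower and called (-0.51, edgeR).

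Scn11a, the gene of Nav1.9, lies 34.4 kb from Scn10a on chromosome 9 (mm10, GENCODE M21: Scn10a 119608456 to 119719322 and Scn11a 119753759 to 119825456, both on the minus strand). It too was highest in NP1-like neurons (197, 236 and 262 CPM as lowest, median and highest) and in Mrgpra3-gated neurons (178, 233 and 277 CPM). It was lower in NP3-like (115 to 171 CPM), lower again in PEP-like (82.9 to 103 CPM) and lower again in TH-like neurons (39.5 to 73.6 CPM), and 6 of 6 mice showed each of these steps. The pair parted in PEP-A-like neurons, where Scn10a was among its highest and Scn11a was 27.9 to 65.9 CPM, below PEP-like neurons in every mouse. The log2 difference of PEP-A-like neurons from the other classes was -0.45 ± 0.13 (SE) for Scn11a (edgeR adjusted p = 0.0023) and 1.71 ± 0.08 for Scn10a (edgeR adjusted p = 9.9e-37). With Mrgpra3-gated neurons left out of the comparison, a setting added after the data were seen, the Scn11a difference was -0.15 and no longer called.

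Scn9a, the gene of Nav1.7 (chromosome 2, 66480080 to 66634962, minus strand), was the broadest of the alpha subunits. TH-like neurons had the most (332, 385 and 404 CPM), above PEP-A-like neurons (268 to 385 CPM) in 6 of 6 mice. PEP-A-like, NP3-like (249 to 299 CPM), PEP-like (235 to 296 CPM), NP1-like (224 to 280 CPM) and Mrgpra3-gated neurons (194 to 264 CPM) followed with overlapping ranges, and no adjacent pair among these had the same direction in all mice. NF-Ad-like neurons had 167 to 194 CPM and NF-Ab-like neurons 138 to 187 CPM. NF-P-like neurons, the class with Pvalb, stood apart at 45.7 to 82.5 CPM, below every other class in every mouse (log2 difference -2.44 ± 0.10 SE, edgeR adjusted p = 8.0e-42). The TH-like difference was 1.05 ± 0.04 (edgeR adjusted p = 5.2e-42). An antisense gene overlaps Scn9a in the annotation, and since no source used here gives the strand setting of the counting, reads from the pair may be mixed.

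Scn1a, the gene of Nav1.1, was highest in NF-P-like neurons (240.0, 326 and 394 CPM), then NF-Ab-like (189, 222 and 248 CPM) and NF-Ad-like neurons (122, 163 and 195 CPM), with the same order in 6 of 6 mice at both steps. TH-like neurons had 42.0 to 56.8 CPM and PEP-A-like neurons 20.8 to 54.5 CPM. In NP1-like neurons only 4 Scn1a UMIs were counted over all 6 mice, in Mrgpra3-gated neurons 3, in NP3-like neurons 10 and in PEP-like neurons 4, and the order of these 4 classes was not detectable at this depth. With every class thinned to equal UMIs, the lower calls of Scn1a in these 4 classes were lost. The log2 differences were -5.64, -4.63, -3.21 and -4.34 as first fitted and -4.91, -4.91, -3.51 and -3.53 thinned. Thinning cannot leave more UMIs than the 4, 3, 10 and 4 counted, so the thinned values are no measured folds. TH-like neurons, although unmyelinated, thus had Scn1a in every mouse at a level that NP1-like, Mrgpra3-gated, NP3-like and PEP-like neurons did not reach. The log2 difference was 5.08 ± 0.11 (SE) in NF-P-like neurons (edgeR adjusted p = 1.4e-64) and 2.31 ± 0.12 in TH-like neurons (edgeR adjusted p = 4.2e-32).

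Scn8a, the gene of Nav1.6 (chromosome 15, 100869858 to 101045938, plus strand), was highest in NF-P-like (211, 263 and 360.0 CPM) and NF-Ab-like neurons (222, 234 and 260 CPM), which did not differ beyond their spread (exact sign-flip permutation over 6 mice, two-sided, p = 0.156). NF-Ad-like neurons (112 to 162 CPM) and PEP-A-like neurons (95.4 to 136 CPM) followed, with overlapping ranges. TH-like neurons were closely alike between mice at 25.2 to 28.4 CPM, and NP1-like (2.76 to 4.32 CPM), NP3-like (2.09 to 7.399 CPM) and PEP-like neurons (1.96 to 17.5 CPM) were lowest. PEP-A-like neurons therefore held Scn10a near its highest level together with more Scn8a than any class outside the NF types in every mouse. Their log2 difference for Scn8a was 1.96 ± 0.10 (SE; edgeR adjusted p = 9.7e-33).

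**Figure D2:**
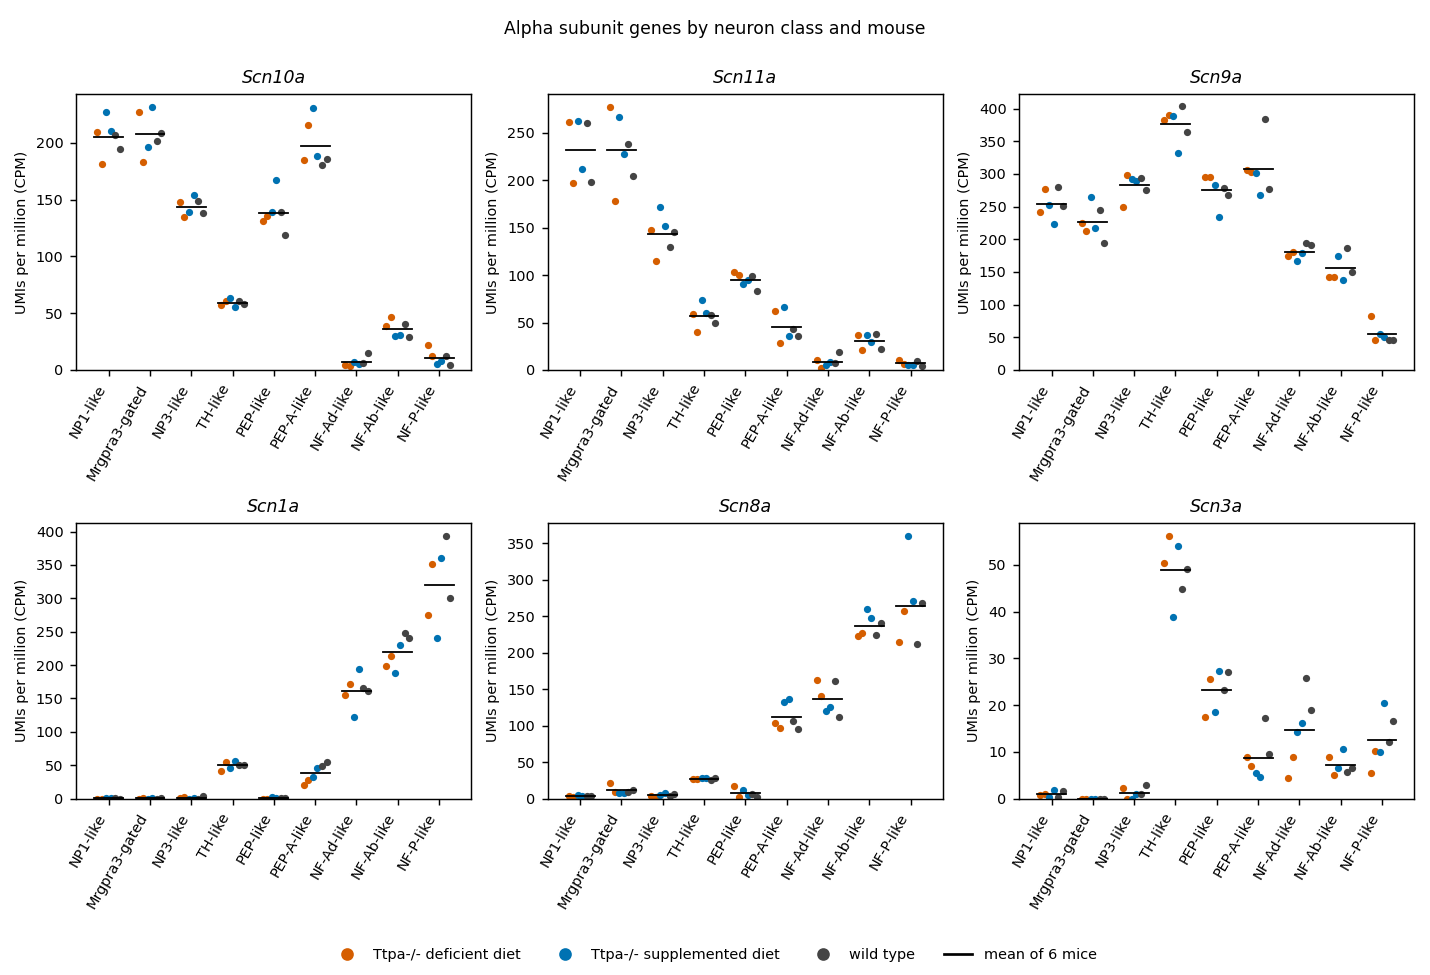
Level of the 6 alpha subunit genes (y axes, CPM, linear) in the 9 neuron classes; each point is 1 mouse, coloured by group, and lines are means of the 6 mice. Scn3a peaks in TH-like neurons at 38.8 to 56.2 CPM, and Scn1a and Scn8a have their highest means in NF-P-like neurons on the right.

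Scn3a, the gene of Nav1.3, was highest in TH-like neurons, as was Scn9a, but with few UMIs in most other classes. TH-like neurons had 38.8, 49.7 and 56.2 CPM as lowest, median and highest, above PEP-like neurons (17.5, 24.4 and 27.3 CPM) in 6 of 6 mice. NF-Ad-like (4.38 to 25.8 CPM), NF-P-like (5.50 to 20.5 CPM), PEP-A-like (4.64 to 17.2 CPM) and NF-Ab-like neurons (5.02 to 10.6 CPM) overlapped one another. NP1-like neurons had 15 UMIs in all, NP3-like neurons 9, and Mrgpra3-gated neurons 0 of 4908704 UMIs. A floor of 3 UMIs over that class is 0.611 CPM, against which Scn3a was at least 80.7-fold higher in TH-like neurons. The 0 makes the mean of the other classes undefined on a log scale. The edgeR comparison did not call NP1-like (-2.38) and NP3-like neurons (-1.91), though with the same 0 it called TH-like neurons (3.76). With that class kept, both were called lower by DESeq2 (adjusted p = 1.2e-10 and 4.9e-05) and by limma-voom (adjusted p = 1.8e-14 and 8.6e-10). Why edgeR differed was not tested. Without the Mrgpra3-gated class, a setting added after this was seen, edgeR called Scn3a lower in NP1-like and NP3-like neurons. The log2 differences were -3.22 (edgeR adjusted p = 6.6e-18) and -2.73 (edgeR adjusted p = 7.0e-11). TH-like neurons were higher by 3.00 (edgeR adjusted p = 6.6e-43) in place of 3.76. PEP-like neurons were at 1.70 in place of 2.46, NF-Ad-like at 0.98 in place of 1.76 and NF-P-like at 0.66 in place of 1.44. NF-Ab-like neurons, not called in either fit, were at -0.41 in place of 0.40. PEP-A-like neurons, which had been called at 0.83, were not called (0.04, edgeR adjusted p = 0.88).

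The beta subunit genes each followed a different order. Scn4b, whose product supports resurgent current, resembled Scn1a and Scn8a: it was highest in NF-Ad-like neurons (165, 194 and 241 CPM), then NF-P-like (109 to 185 CPM) and NF-Ab-like neurons (111 to 153 CPM), with 38.4 to 90.6 CPM in PEP-A-like and 14.1 to 23.4 CPM in TH-like neurons. It was at most 8.13 CPM in any mouse in NP1-like, Mrgpra3-gated, NP3-like and PEP-like neurons. The log2 difference in NF-Ad-like neurons was 3.92 ± 0.11 (SE; edgeR adjusted p = 2.8e-54).

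Scn2b, a beta subunit that pairs with alpha subunits through a disulfide bond, lies 8.3 kb from Scn4b on chromosome 9 (Scn2b 45117782 to 45130070 and Scn4b 45138395 to 45154152, plus strand) but had another order. It was highest in PEP-A-like neurons (94.0, 121 and 189 CPM), followed by Mrgpra3-gated (57.2 to 113 CPM), NP3-like (55.1 to 81.4 CPM), TH-like (47.1 to 70.3 CPM) and PEP-like neurons (36.9 to 62.6 CPM), whose ranges overlap. NP1-like neurons, although unmyelinated, had only 1.04 to 5.85 CPM, and NF-Ad-like and NF-P-like neurons 0 to 11.9 and 0 to 9.32 CPM. The log2 difference was -2.90 ± 0.23 (SE) in NP1-like neurons (edgeR adjusted p = 7.7e-21) against 2.08 ± 0.14 in Mrgpra3-gated neurons (edgeR adjusted p = 5.2e-26), so the 2 classes with the most Scn10a and Scn11a lay on opposite sides for Scn2b.

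Scn3b, which binds alpha subunits without a disulfide bond, parted the same classes. Mrgpra3-gated neurons had the most (92.0, 99.6 and 128 CPM), TH-like (73.7 to 93.5 CPM), NP3-like (65.5 to 93.3 CPM), PEP-like (45.5 to 85.8 CPM) and PEP-A-like neurons (51.5 to 80.4 CPM) followed, and NP1-like neurons had 12.8, 13.2 and 14.0 CPM. The NP1-like level was thus low and nearly equal in all 6 mice. NF-P-like neurons had 26.3 to 35.0 CPM and NF-Ab-like and NF-Ad-like neurons 3.73 to 17.7 and 4.55 to 19.998 CPM. The log2 difference was 1.78 ± 0.10 (SE) in Mrgpra3-gated neurons (edgeR adjusted p = 2.2e-31) and -1.42 ± 0.11 in NP1-like neurons (edgeR adjusted p = 3.4e-21). The lower call in NF-P-like neurons (-0.47) was lost without the Mrgpra3-gated class (-0.25).

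**Figure D3:**
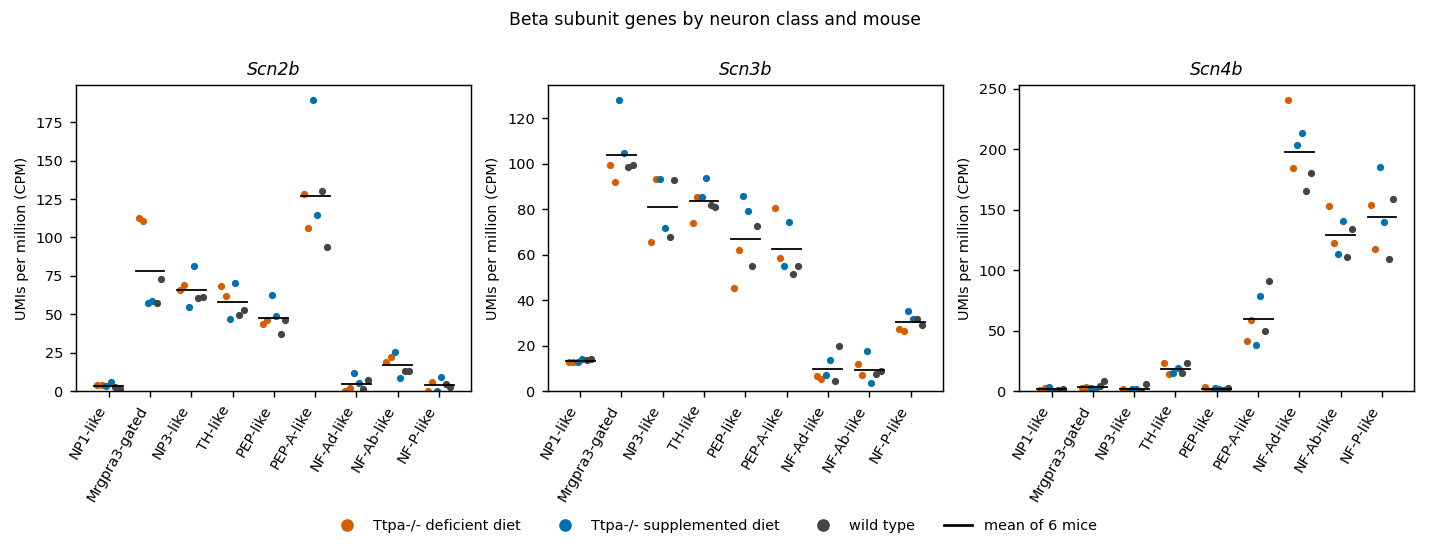
Level of the 3 beta subunit genes (y axes, CPM, linear) in the 9 neuron classes; each point is 1 mouse, coloured by group, and lines are means of the 6 mice. NP1-like neurons are near the axis for Scn2b and low for Scn3b, next to Mrgpra3-gated neurons near the top for Scn3b.

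In all, 72 pairs of neighbouring classes in the order of the 9 genes were tested (exact sign-flip permutation over 6 mice, two-sided). In 31 pairs every mouse had the same direction, which gives the smallest p that 6 mice allow, 0.03125. After Benjamini-Hochberg adjustment over the 72 pairs none passed, the smallest adjusted p from this exact permutation test being 0.0726.

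The share of cells with a UMI gave the same picture of Scn1a and Scn10a. Scn10a was detected in a median over mice of 77.68% of NP1-like neurons and 2.724% of NF-P-like neurons, and Scn1a in 0.1185% and 77.02%. After each cell was thinned to 2000 UMIs the shares for Scn10a were 33.58% and 1.847%, and those for Scn1a were 0% and 51.28%. Scn9a was detected in 77.04% of TH-like and 18.41% of NF-P-like neurons (53.69% and 10.46% thinned). The cells of all non-neuronal gates together held a median of 10 of 12 pan-neuronal markers. Those gated as satellite glia had 289 CPM of Scn9a, 151 CPM of Scn10a and 134 CPM of Scn11a. No population free of neuronal RNA was thus at hand as a background. In NP1-like neurons Scn1a was at a mean of 0.264 CPM, so free RNA of this gene can have added no more than that there.

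By the likeness of their level over 54 sums (6 mice in 9 classes, 4925 genes of at least 50 CPM in 1 class), the genes nearest to each channel were named. The sums share mice and classes, so Pearson's r is a description. Scn10a was nearest to Cd9 (r = 0.977), Prdm12 (0.939), a regulator required for pain-sensing neurons, and Atp8a1 (0.908). Scn11a was nearest to Dynll1, Ypel3 and Carhsp1 (0.934 to 0.919), and Scn9a to Sri, Stmn1 and Clic1 (0.897 to 0.875). Scn1a was nearest to Lrrn1, Mcam and Syt3 (0.963 to 0.959), Scn8a to Tmem56, Nat8l and Slco5a1 (0.959 to 0.948), and Scn4b to Lrrn1 (0.956), Cntn1 (0.943), the axonal contactin of paranodes, and Slco5a1 (0.942), so Lrrn1 and Slco5a1 recurred among the NF-rich channels. Scn3a was nearest to Gpr162, Chd5 and Nrip3 (0.908 to 0.885), Scn2b to 1700001L19Rik, Mgll and Chic2 (0.865 to 0.855), and Scn3b to Nrsn1, Tmem229a and Camk1 (0.869 to 0.805).

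A list of 31 other genes of sodium channel complexes, anchoring and sodium pumping also differed by class, with 217 of 252 comparisons called, 111 higher and 106 lower, against 63.4% of all comparisons. The axonal adhesion genes Cntn1 (1774 CPM), Cntnap1 (126 CPM) and Nrcam (54.4 CPM) had their highest mean in NF-Ab-like neurons and Nfasc (179 CPM) in NF-P-like neurons. Ank3, whose product ankyrin-G anchors sodium channels at the node of Ranvier, had its highest mean in NP3-like neurons (233 CPM) and its lowest in NF-Ad-like neurons (96.7 CPM). Fgf13, which binds the channel tail inside the cell, was highest in PEP-like neurons (3022 CPM), Fgf12 in PEP-A-like neurons (495 CPM), and S100a10, which helps Nav1.8 reach the membrane, in TH-like neurons (2076 CPM). Scn7a, a related channel that senses sodium, was highest in NF-Ad-like neurons (1960 ± 176 CPM, SD, n = 6) and lowest in Mrgpra3-gated neurons (149 CPM).

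Between the groups, no channel gene was called in the classes where it could be tested. Of the 81 gene and class pairs, 58 passed a filter on low counts and were tested with edgeR in each of 3 comparisons, and none was called: 0 of 58 for deficient against wild type, where 0.0281% of all tests were called, 0 for supplemented against wild type (0.038%) and 0 for deficient against supplemented (0.00281%). At an unadjusted p under 0.05 the counts were 3, 0 and 4 with edgeR, 3, 0 and 4 with limma-voom and 3, 0 and 1 with DESeq2, and these 2 tools called 0 as well. The comparisons share mice, wild type for the first 2 and each Ttpa-/- group for the third. The labels name each sample by a mouse, and with 2 mice a group a small change could be missed: for deficient against wild type the 95% interval lay within 1 log2 unit of 0 in 48 of 58 pairs and within 0.5 in 22.

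Where the pain-related channels were highest, the groups were close. In NP1-like neurons Scn10a was 209.7 and 181.6 CPM in deficient, 227 and 210.5 in supplemented and 207 and 194 in wild type mice. The ranges of deficient and wild type mice overlap, and the log2 difference was -0.07 (95% interval -0.34 to 0.20). Scn11a there was 262 and 197 CPM in deficient, 262 and 212 in supplemented and 260.5 and 198 in wild type mice, a difference of -0.04 (-0.36 to 0.28) for deficient against wild type. In NF-Ab-like neurons Scn8a was 222 and 226 CPM in deficient, 260 and 247 in supplemented and 224 and 241 in wild type mice, and the deficient against wild type difference was -0.06 (-0.36 to 0.24).

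The smallest unadjusted p values belonged to 3 gene and class pairs, none past adjustment. Scn2b in Mrgpra3-gated neurons was 113 and 111 CPM in deficient, 57.2 and 58.6 in supplemented and 57.3 and 73.1 in wild type mice. Both deficient mice were above the other 4, with a log2 difference of 0.94 ± 0.24 (SE) from supplemented (edgeR adjusted p = 0.746) and 0.75 ± 0.21 from wild type (edgeR adjusted p = 0.9999). Scn1a in PEP-A-like neurons was 20.8 and 27.9 CPM in deficient, 33.0 and 46.4 in supplemented and 48.6 and 54.5 in wild type mice, so that the groups do not overlap in this order. The deficient against wild type difference was -1.02 ± 0.30 (edgeR adjusted p = 0.999). Scn3a in NF-Ad-like neurons was 4.38 and 8.88 CPM in deficient, 14.3 and 16.2 in supplemented and 25.8 and 19.0 in wild type mice, from 61 UMIs in all, with a difference of -1.69 ± 0.59 (edgeR adjusted p = 0.918). The Scn3a difference was -0.89 with each neuron given to its highest-scoring class and -2.36 without mouse 657, and its unadjusted p was above 0.05 without mouse 654 (-1.29) or mouse 698 (-1.50). Over pairs with at least 20 UMIs in both groups, both mice of a group lay above both of the other in 15 of 53 pairs for deficient against wild type, where 29.1% of all genes did so, in 19 of 55 for supplemented against wild type (30.6%), and in 19 of 53 for deficient against supplemented (30.1%).

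**Figure D4:**
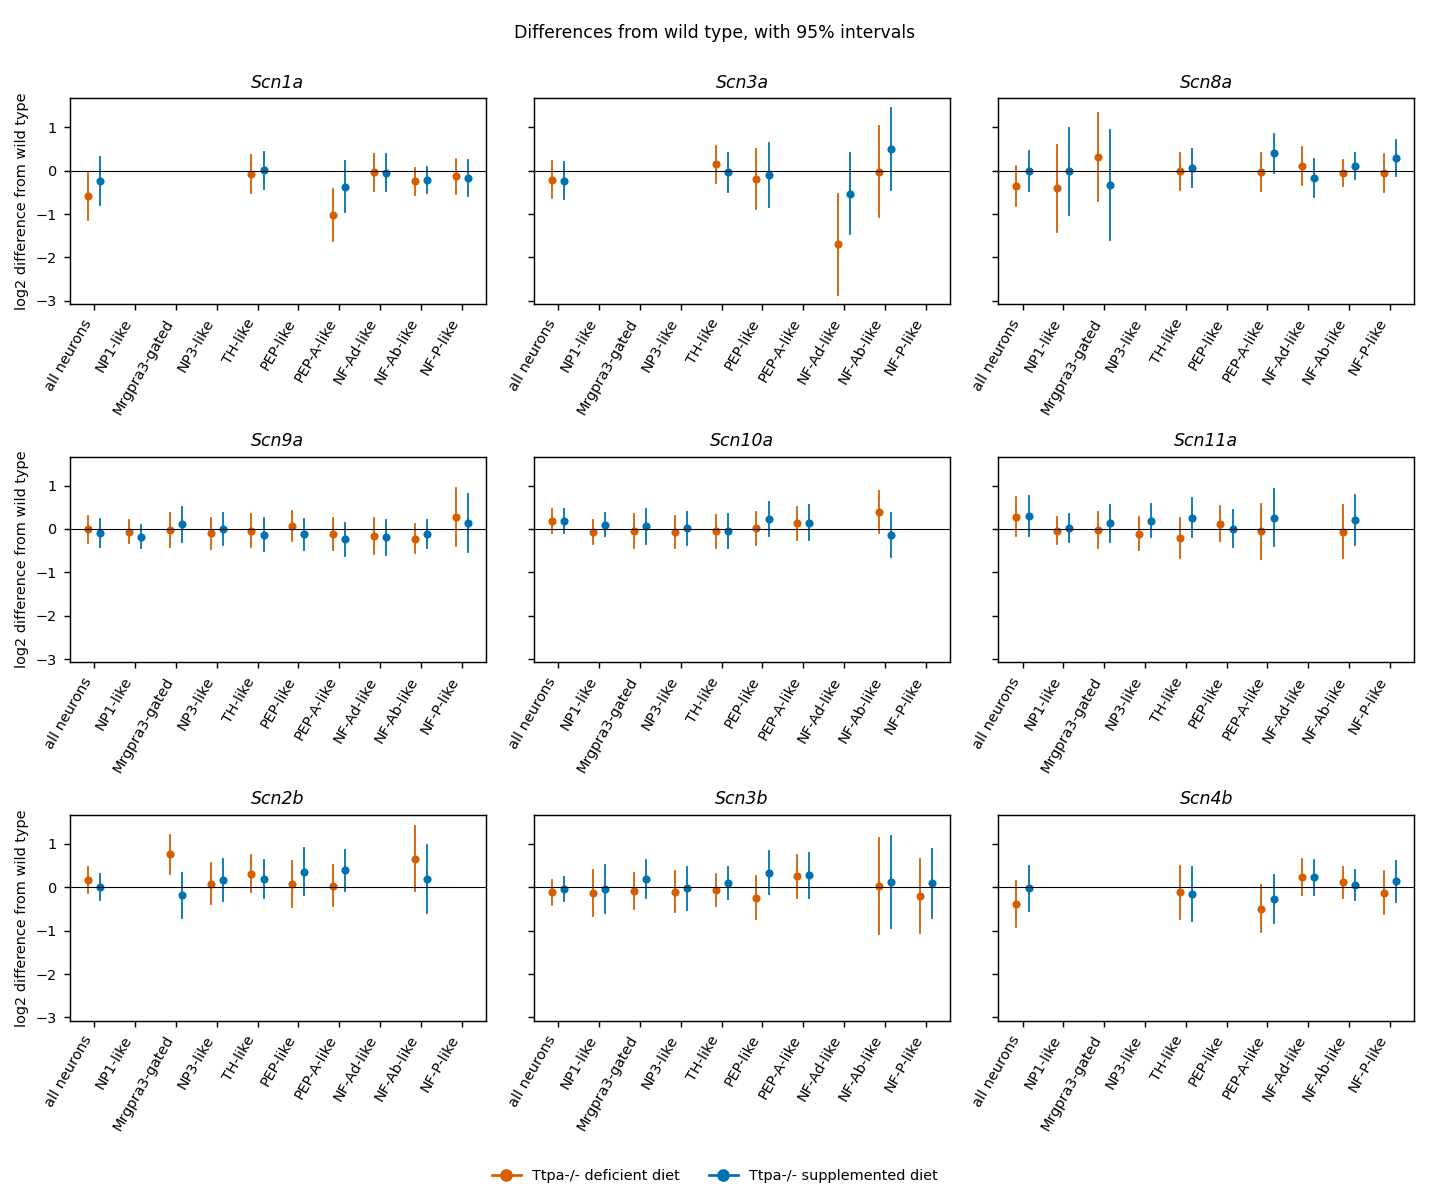
Log2 difference from wild type (y axes, shared scale) of each channel gene in all neurons and in the 9 classes, for deficient (orange) and supplemented (blue) mice; points are edgeR estimates, bars their 95% intervals, and gaps are classes where the gene did not pass the low-count filter. Most intervals cross 0; those of Scn1a in all neurons (-0.58) and in PEP-A-like neurons (-1.02), Scn2b in Mrgpra3-gated neurons (0.75) and Scn3a in NF-Ad-like neurons (-1.69) do not, and none was called after adjustment.

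Summed over all neurons, 0 of 9 channel genes were called by edgeR, DESeq2 or limma-voom in any comparison, where 0.0% of 13353 genes were called by edgeR, and 1, 0 and 0 had an unadjusted p under 0.05 with edgeR (0, 0 and 0 with DESeq2, 1, 0 and 0 with limma-voom). In such sums fewer cells of a type and less RNA per cell cannot be told apart. Scn1a came nearest, at 35.2 and 52.7 CPM in deficient, 43.4 and 70.2 in supplemented and 53.5 and 78.8 in wild type mice. The deficient mice were below wild type by a log2 difference of -0.58 ± 0.25 (SE; edgeR adjusted p = 0.989). With no low-count filter Scn1a was called, and leaving out 1 mouse at a time moved it between -0.94 and -0.29. Scn8a (-0.36, 95% interval -0.83 to 0.10) and Scn4b (-0.39, -0.92 to 0.13) had values below 0, and Scn10a (0.18, -0.10 to 0.46) and Scn11a (0.28, -0.17 to 0.74) above 0, in the same comparison, none of them called.

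The make-up of the neurons also differed between mice, and its part in these values was not tested. NP1-like neurons, rich in Scn10a and Scn11a, were 22.8% and 15.5% of the gated neurons in deficient, 22.1% and 17.2% in supplemented and 12.8% and 9.21% in wild type mice. The 3 NF classes together were 15.6% and 16.3%, 22.9% and 22.2%, and 16.7% and 24.3%. With each of the 9 classes given equal weight in every mouse, a setting added after the data were seen, Scn1a was 77.0 and 91.5 CPM in deficient and 101 and 90.3 in wild type mice, a log2 ratio of means of -0.18 where all neurons gave -0.59. For Scn8a the ratio was 0.02 in place of -0.36, for Scn4b 0.08 in place of -0.39, for Scn11a 0.01 in place of 0.29 and for Scn10a 0.04 in place of 0.18. The ratio of Scn3b was also nearer 0 (-0.03 in place of -0.12). It was farther from 0 for Scn2b (0.30 in place of 0.17), Scn3a (-0.31 in place of -0.22) and Scn9a (-0.027 in place of -0.0082). For supplemented against wild type mice the ratio of Scn8a was 0.21 in place of 0.01 and that of Scn3b 0.19 in place of -0.02. All neurons include cells outside the 9 classes, which the equal-weight mean leaves out. The compared ratios thus differ in cells as well as in weights. The equal-weight ratio of deficient to wild type mice was nearer 0 for 6 of the 9 genes and farther for 3. These ratios carry no test.

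**Figure D5:**
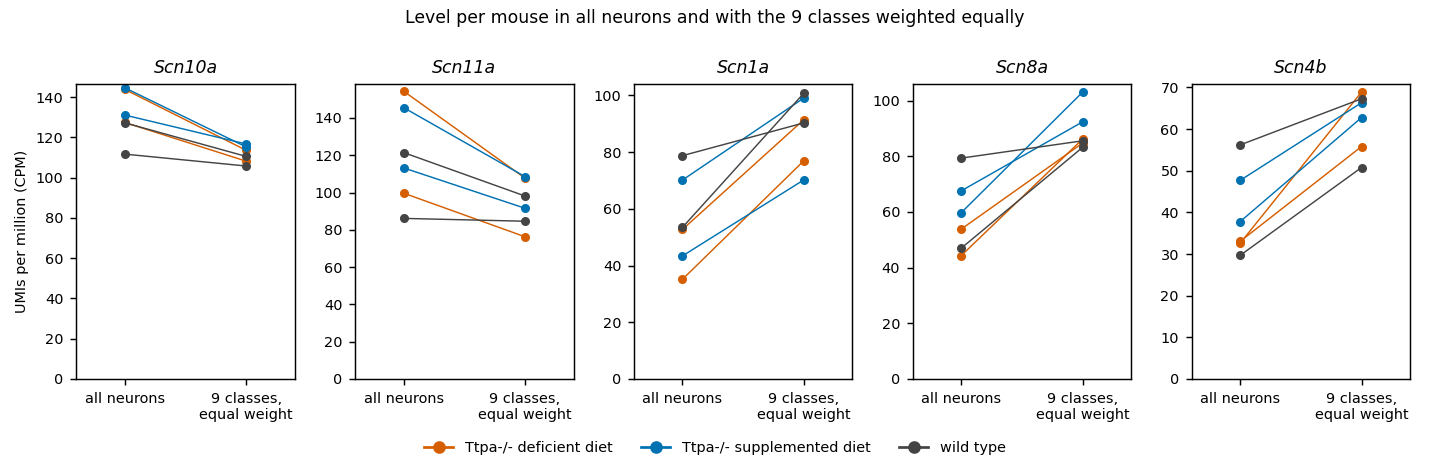
Level of 5 channel genes in each mouse (y axes, CPM, linear from 0), in all neurons (left of each panel) and as the mean of the 9 classes at equal weight (right); lines join the 2 values of a mouse and colours give the group. Scn1a spans 35.2 to 78.8 CPM in all neurons, and with equal weights it spans 70.2 to 101 CPM.

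Of the 31 partner genes, 210 gene and class pairs were tested between deficient and wild type mice and none was called by edgeR, with 4 at an unadjusted p under 0.05 (0 by DESeq2 and 5 by limma-voom, neither with a call). The 2 with the smallest p were Cntn1 in PEP-like neurons (-1.32 ± 0.54, SE, edgeR adjusted p = 0.9998) and Scn7a in Mrgpra3-gated neurons, at 128 and 125 CPM in deficient and 166 and 177 in wild type mice (-0.46 ± 0.19, edgeR adjusted p = 0.9999).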

How the data were processed

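The files hold 1 table of raw UMI counts per gene and cell that the authors deposited, for 6 mice. Reads were handled with bcl2fastq 2.17.1.14, Cell Ranger 2.0.1, Seurat 2.3.0 and limma 3.32.10 on mm10, per the submitters' processing notes. How cells were selected is not given in the sources here. These are 3' v2 droplet libraries, which count transcript ends. Cells were mapped to mice by the number in their names.

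A cell was kept if it had at least 500 genes and no more than 20% of UMIs from mitochondria (27 removed). A neuron had 8 or more of 12 pan-neuronal markers. A class needed 2 markers, a key gene, a mean score of 0.3 and a lead of 0.2 over other classes (3904 cells lay near the lead limit), and 6833 cells were in no gate. A class was tested with 20 or more cells in every mouse. Doublets were treated by leaving out the 3% of cells with the most UMIs, as an alternative. Counts were summed per mouse and class, and each mouse was 1 replicate. They were tested with edgeR 4.0.16 (TMM, filterByExpr, quasi-likelihood), with Benjamini-Hochberg adjustment in each fit and a threshold of 0.05. DESeq2 1.42.0 and limma 3.58.1 were alternatives. SE is the log2 difference divided by the square root of F. Levels in the sign-flip tests are log2(CPM + 1).

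The tests were checked on simulated counts with the same spread set for every gene, which is not the spread of these mice. For deficient against wild type, 8 of 50 changes of 1.5-fold were recovered in Mrgpra3-gated neurons. In NP1-like neurons 17 of 50 were recovered, and in all neurons 33 of 50. Of 50 changes of 2-fold, 38, 39 and 46 were recovered. The members, lists and tests were chosen with earlier results of these data known. All 9 channels are described. The 3 nearest genes by Pearson's r are named for each, and, of the partners, those called or the 2 with the smallest p. Other genes were named after their values were seen. Some partner genes that this rule names are not reported here. Positions are from GENCODE M21 (GRCm38, the mm10 build). RefSeq promoters matched 7 of the 9 genes.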

Additional observations from a re-analysis of the deposited data

Results flagged for a closer look

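For 7 pairs of a gene and a comparison, both mice of 1 group lay above both of the other in 1 class and below them in another. With 2 mice a group, 29.1% to 30.6% of all gene and class pairs did not overlap in the 3 comparisons, and no difference between the classes was tested. Values are edgeR log2 differences, none of them called.

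For deficient against supplemented, Scn8a was 0.28 in NF-Ad-like neurons and -0.084, -0.42, -0.17 and -0.35 in TH-like, PEP-A-like, NF-Ab-like and NF-P-like neurons. Scn10a was 0.54 in NF-Ab-like neurons and -0.17 and -0.22 in NP1-like and PEP-like neurons. Scn11a was 0.12 in PEP-like neurons and -0.30 and -0.47 in NP3-like and TH-like neurons. Scn2b was 0.94 in Mrgpra3-gated and -0.28 in PEP-like neurons.

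For deficient against wild type, Scn9a was 0.076 and 0.28 in PEP-like and NF-P-like neurons and -0.16 and -0.22 in NF-Ad-like and NF-Ab-like neurons, and Scn3b was 0.25 in PEP-A-like and -0.13 in NP1-like neurons. For supplemented against wild type, Scn9a was 0.14 in NF-P-like and -0.19 in NF-Ad-like neurons.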

How the results depend on the processing

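Counts of calls kept within 1.5 times of their value under the alternatives tried, with 1 exception. Over all neurons, deficient against wild type gave 1 call without the low-count filter. The alternatives were each mouse left out, RLE scaling, other gates and cell filters, thinned sums, DESeq2 and limma-voom. Further ones were both Ttpa-/- diets as 1 group, a sex term and no filter on low counts. A term marking the shallower library of each group was added after the data were seen. Between classes, 74 of 81 calls became 73 to 77 where all 81 pairs were tested, 66 of 72 with the stricter gate, 66 of 72 without the Mrgpra3-gated class and 61 of 72 with thinned sums. With no mouse block, that is, without the pairing of classes from the same animal, the count was 74. No paired analysis was possible between groups because each mouse is in 1 group. A lone mouse left in a group was assumed to vary like the others. Neighbouring classes gave 0 calls under every alternative, and with 5 mice the smallest exact permutation p is 0.0625.

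Directions that turned were all of uncalled values, except as said here. In deficient against wild type over all neurons, leaving out 1 mouse gave -0.69 to 0.054 for Scn8a, -0.15 to 0.13 for Scn9a, -0.053 to 0.55 for Scn11a and -0.78 to 0.13 for Scn4b. In TH-like neurons, Scn10a turned to 0.15 with the stricter gate and 0.13 without the Mrgpra3-gated class, Scn4b to -0.084 and -0.060, and Scn11a to -0.27 by highest score, where it was called lower, and to -0.11 with thinned sums. In NF-Ab-like neurons Scn3a turned to -0.0749 by highest score, -0.43 with the stricter gate and -0.41 without that class. The cause was not tested, but leaving out a class changes the mean that a class is compared with. The stricter gate left no Mrgpra3-gated class. In the class comparisons 17 values lost their call with the same direction and 17 gained one. Leaving out mouse 698 ended the call of Scn3a in PEP-A-like neurons (0.56), which limma-voom (0.48) and the highest score (0.38) did not make either, and leaving out mouse 699 ended that of Scn3b in NF-P-like neurons (-0.38) and made one of Scn4b in TH-like neurons (0.34).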

Other observations

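A further gate needed a UMI of Trpm8 or Foxp2 and was scored on Foxp2, Cdh8, Gpr26, Rspo2 and Tcf7l2, without Trpm8 itself, so its neurons are given no type name. They numbered 53 over the 6 mice, too few to test. Their summed 171454 UMIs held 45 of Scn4b (262 CPM, exact Poisson 95% interval 191 to 351), 32 of Scn1a (187 CPM, 128 to 263), 40 of Scn9a (233 CPM, 167 to 318) and 11 of Scn3a (64.2 CPM, 32.03 to 115), but 2 of Scn10a and 1 of Scn11a. Intervals cover counting error only. In these cells, the Scn1a level was within the range of the NF classes (122 to 394 CPM over mice). The Scn4b interval reached over that of the NF classes (109 to 241 CPM). Scn10a (11.7 CPM, 1.41 to 42.1) and Scn11a (5.83 CPM, 0.148 to 32.5) were within the ranges of NF-P-like neurons. With 2 and 1 UMIs, their intervals also reached the ranges of NF-Ab-like neurons.

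Scn11a was higher in the mouse with the shallower library of its group more often than most genes compared. Mice 654, 670 and 698 had the lower median UMIs per cell of their groups, and in 22 of 27 pairs (9 classes in 3 groups) the mouse with the shallower library had the higher Scn11a, with all 3 groups alike in 5 of 9 classes. In NP1-like neurons these mice had 262, 262 and 260.5 CPM, against 197, 212 and 198 in the other 3. Of 2974 genes with 50 CPM or more in all neurons of every mouse, 5.58% had as many such pairs or more, and the median gene had 15. Genes regularly lower in the shallower library are not in that share. Scn9a had 21 such pairs. Scn1a had 5 and Scn3a 6, but their lowest levels in all neurons were 35.2 and 12.9 CPM, below that limit of 50 CPM. Ties were counted as not higher, as for Scn3a in Mrgpra3-gated neurons with 0 UMIs in every mouse. Mouse 670 is male and mice 654 and 698 are female. Whether the 3 mice share a library or sequencing batch was not tested. A fit with a term marking the mouse with the shallower library of each group, added after the data were seen, gave no call of a channel gene between groups. The term does not carry the depth itself, so differences in depth between groups were not adjusted for.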
